A study of Homo sapiens with 10 samples.

Results

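Of the 22626 rows in the read-count table of this ARPE-19 experiment, 9 carry the symbol of a tight junction protein examined here, and they were taken by symbol alone: F11R, CLDN11, CLDN1, CLDN19, OCLN, MARVELD2, TJP1, TJP3 and CGN. ARPE-19 is an established human cell line of the retinal pigment epithelium (RPE), the pigmented cell sheet behind the photoreceptors. The cells were kept for 48 h in control medium with 5.5 mM glucose and 32 mM mannitol (n = 5 libraries), or in high glucose medium with 37.5 mM glucose (HG, n = 5 libraries). Mannitol is a sugar alcohol added to the control so that both media hold a like amount of dissolved sugar. The comparison asks which junction transcripts differed between high glucose and this osmotic control. The control libraries are called by their replicate number and the HG libraries by the deposited column (HG_1 to HG_5), since the labels tie those columns to the group only. The study describes its experiments in general as independent repeats, but neither the labels nor the methods say which step was repeated for these libraries, so p-values measure the spread between them, part of which may be technical.

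Tight junctions are belts of membrane strands that seal the gap between neighbouring epithelial cells. Claudins form the strands and set which ions and small solutes pass. Occludin and tricellulin, which share the MARVEL fold, sit in the strands and at the corners where several cells meet. Junctional adhesion molecules hold the membranes together with immunoglobulin domains, and the cytoplasmic ZO proteins and cingulin tie all of these to the actin cytoskeleton and to polarity complexes. In the retinal pigment epithelium this belt is the outer blood-retinal barrier, and CLDN19 is known as a main claudin of the native human tissue.

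CLDN11 and CLDN1, both on chromosome 3, are the strand-forming members with a clear signal in this line, and the 250 bases before a RefSeq start of each (GRCh38.p14) are shown 5′ to 3′ on the strand of the gene to set the one that fell beside the one that did not pass the test. Capitals mark the GC box GGGCGG or its reverse complement CCGCCC, the short site of the Sp family.
CLDN11, plus strand, chr3:170418618-170418867: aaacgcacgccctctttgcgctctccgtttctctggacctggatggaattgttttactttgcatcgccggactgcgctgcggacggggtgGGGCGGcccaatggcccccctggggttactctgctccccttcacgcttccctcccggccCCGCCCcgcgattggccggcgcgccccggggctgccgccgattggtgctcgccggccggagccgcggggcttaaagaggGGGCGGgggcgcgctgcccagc
CLDN1, minus strand, chr3:190322447-190322696: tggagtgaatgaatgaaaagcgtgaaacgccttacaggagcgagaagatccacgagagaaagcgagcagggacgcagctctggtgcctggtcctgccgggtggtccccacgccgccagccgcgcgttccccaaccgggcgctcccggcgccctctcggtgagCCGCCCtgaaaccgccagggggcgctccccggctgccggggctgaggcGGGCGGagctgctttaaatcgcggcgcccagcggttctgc
The CLDN11 window held 3 GC boxes at a GC content of 71.2%, and the CLDN1 window held 2 at 68.8%. CLDN11 has a further RefSeq start downstream, and the window before it (chr3:170420976-170421225, not printed) held 1 GC box at a GC content of 48%, fewer than CLDN1, so the order of these genes depends on the start that is read. A GC box stands in 42.6% of the 35116 promoters of the table. The E-box CAGGTG or CACCTG, which Snail and ZEB repressors are known to bind, stands in 17.5% of these promoters and in none of the CLDN11 and CLDN1 windows. Among the other members it stands before each RefSeq start of OCLN and before a start of TJP1 and of TJP3. It is absent from the windows of MARVELD2 and CGN. These matches describe the letters of the windows and are not binding sites found in these cells.

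Of the 9 genes 7 could be tested and none of these rose, while F11R fell by 18% and CLDN11 fell by 19.5% in HG. These 7 passed edgeR's filter on low counts and were tested among all 14936 rows with edgeR's quasi-likelihood test, with p-values adjusted by Benjamini and Hochberg. At an adjusted p under 0.05, 0 were higher in HG, 2 were lower and 5 did not pass. At the same limit 15.4% of all rows tested were called, 7.62% higher and 7.8% lower. No tested member had a log2 fold change above 0, and DESeq2 and limma likewise called 0 members higher. The median log2 fold change of the 7 tested genes was -0.27, beside 0.001 over all rows, where the median absolute change was 0.15. Of the tested members, the groups did not overlap for the same 2 genes, while 13.6% of all tested rows lay apart, 6.91% with HG lower.

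**Figure D1:**
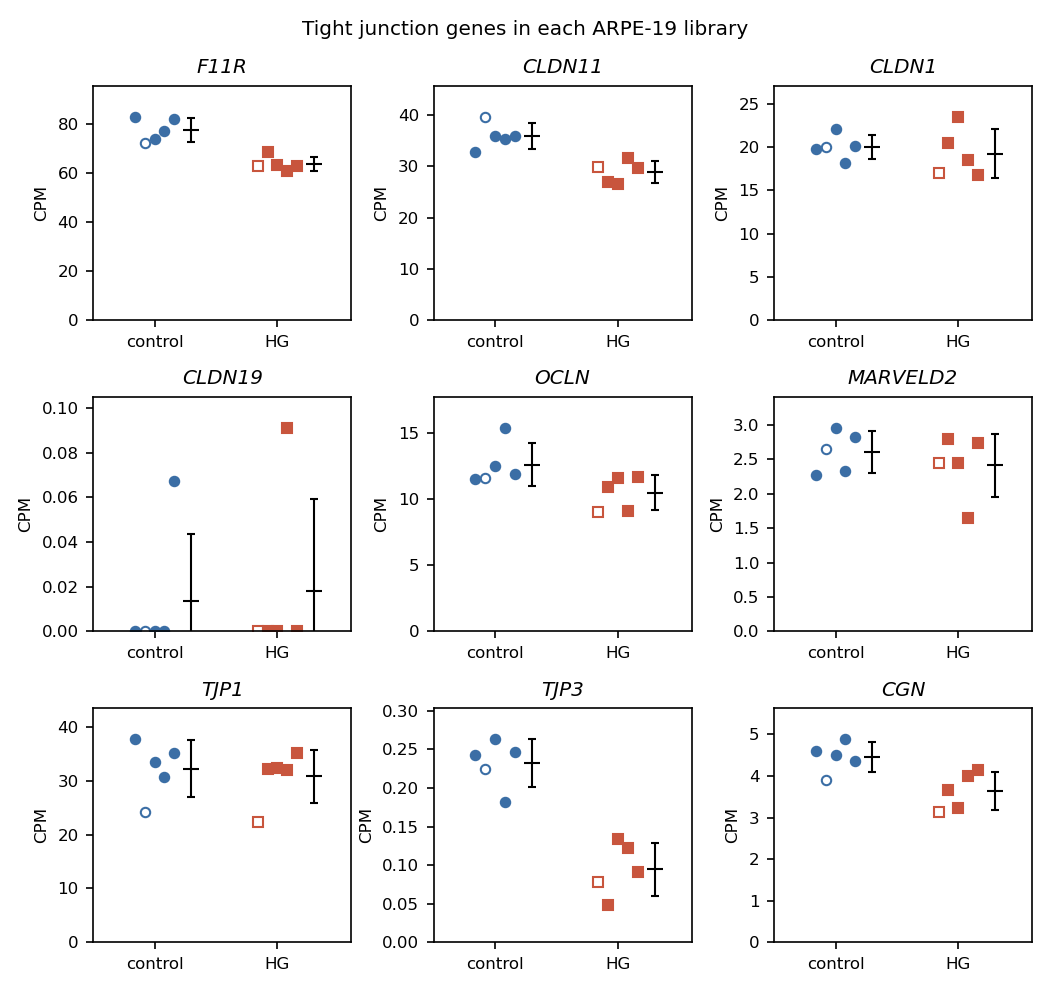
Count level (CPM, read counts scaled to a fixed library total) of each tight junction gene in the 10 libraries, with circles for control, squares for HG and a bar with whiskers for the mean ± SD. Open symbols are control replicate 2 and HG_1; every HG library of F11R (61 to 68.4) lies below every control library (72.1 to 83), and the same holds for CLDN11 and for the sparse TJP3.

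F11R encodes JAM-A, a homophilic adhesion molecule that helps to assemble the junction and polarity complexes. It lies at 1:160995211-161021348 on the minus strand of GRCh38 in GENCODE release 29, the build and annotation of all gene positions given here. In CPM, F11R was at 83, 72.1, 73.7, 77.1 and 82.2 in control replicates 1 to 5 and at 62.8, 68.4, 63.1, 61 and 62.9 in HG_1 to HG_5. The highest HG library stayed under the lowest control library. The group means were 77.6 ± 4.92 (SD, n = 5) and 63.6 ± 2.82 CPM, a log2 fold change of -0.29 (SE 0.0545, 95% interval -0.41 to -0.17, adjusted p = 0.0052 in edgeR's quasi-likelihood test). An exact two-sided permutation test, not adjusted for the 7 members tested, gave p = 0.00794, the smallest this design allows. Of the 100-base windows of the F11R transcript, 37.1% are shared with AL591806.3, a gene that overlaps it on the same strand and whose own row held 1 to 41 counts per library.

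CLDN11, a sealing claudin best known from myelin and from the barrier of the testis, was the claudin among the members that fell. It lies at 3:170418865-170454733 on the plus strand. Its level was 32.8, 39.7, 36, 35.3 and 35.9 CPM in the control libraries and 29.9, 27, 26.5, 31.6 and 29.7 CPM in the HG libraries. The lowest control library, replicate 1, stayed just above the highest HG library, HG_4. Means were 35.9 ± 2.49 and 28.9 ± 2.14 CPM (SD, n = 5 each), with a log2 fold change of -0.31 (SE 0.0682, 95% interval -0.46 to -0.16, edgeR adjusted p = 0.0109, exact permutation p = 0.00794). An overlapping gene model, AC026316.5, shares 23.7% of the windows of the CLDN11 transcript and was at 0 counts in all 10 libraries. In a whole culture, fewer cells that transcribe a gene and less RNA of it per cell cannot be told apart.

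CLDN1, a barrier-forming claudin of skin and many epithelia at 3:190305701-190322475 on the minus strand, did not pass. It was at 19.8, 20, 22.1, 18.2 and 20.1 CPM in control and at 17, 20.4, 23.5, 18.5 and 16.8 CPM in HG. The HG libraries reached both below and above the control range. The log2 fold change was -0.06 (95% interval -0.27 to 0.16, edgeR adjusted p = 0.769; -0.14 without HG_3), an interval that covers both a fall and a rise of moderate size.

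CLDN19, at 1:42733093-42740254 on the minus strand, was at or under the level of counting noise. Control replicate 5 and HG_4 held 3 counts each and the other 8 libraries 0, where a count of 0 allows up to 3 counts, or 0.0669 to 0.0912 CPM in these libraries. It did not pass the filter and no fold is given. This claudin of the native tissue was thus seen only as a trace near the counting floor at 32448991 to 45864176 counts per library.

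OCLN, which encodes occludin and lies at 5:69492292-69558104 on the plus strand, had a lower mean in HG that did not pass the adjusted limit. It was at 11.5, 11.6, 12.5, 15.4 and 11.9 CPM in control and at 9.01, 10.9, 11.6, 9.12 and 11.7 CPM in HG. The groups met between 11.5 and 11.7 CPM, and control replicate 4 stood above the other 9 libraries. The log2 fold change was -0.27 (SE 0.113, 95% interval -0.52 to -0.02), with p = 0.0374 and adjusted p = 0.146 in edgeR and an unadjusted exact permutation p of 0.0397. The pseudogene OCLNP1 shares 6.7% of the windows of the OCLN transcript, so a small part of its reads is uncertain.

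MARVELD2, which encodes tricellulin of the tricellular corners, lies at 5:69415065-69444330 on the plus strand. It was at 2.27, 2.65, 2.96, 2.33 and 2.83 CPM in control and at 2.44, 2.79, 2.45, 1.64 and 2.74 CPM in HG. Apart from HG_4, the HG libraries lay inside the control range. Its log2 fold change was -0.11 (95% interval -0.48 to 0.26, edgeR adjusted p = 0.732), and -0.003 without HG_4.

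TJP1 encodes ZO-1, the scaffold that binds claudins, occludin and JAM-A at the membrane, and lies at 15:29699367-29968865 on the minus strand. In control it was at 37.8, 24.1, 33.4, 30.6 and 35.2 CPM, and in HG at 22.4, 32.1, 32.3, 31.9 and 35.2 CPM. The lowest values of both groups came from control replicate 2 and HG_1, and the other 8 libraries spanned 30.6 to 37.8 CPM. The log2 fold change was -0.06 (SE 0.139, 95% interval -0.37 to 0.24, edgeR adjusted p = 0.819), and it was 0.03 without HG_1 (adjusted p = 0.877).

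CGN encodes cingulin, which links ZO-1 to actomyosin, and lies at 1:151510510-151538692 on the plus strand. It was at 4.61, 3.9, 4.5, 4.9 and 4.36 CPM in control and at 3.14, 3.66, 3.23, 4.01 and 4.14 CPM in HG. The overlap was narrow, with HG_4 and HG_5 above control replicate 2. A log2 fold change of -0.29 (SE 0.121, 95% interval -0.56 to -0.03) came with p = 0.0344 and adjusted p = 0.138 in edgeR and an unadjusted exact permutation p of 0.0238. Its estimate was as large as that of F11R, and its standard error was greater at this low level.

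TJP3, which encodes ZO-3, at 19:3708109-3750813 on the plus strand, was sparse and did not pass the filter. Its counts were 8, 10, 11, 6 and 11 in the control libraries and 3, 2, 6, 4 and 3 in the HG libraries, or 0.182 to 0.264 CPM against 0.0485 to 0.134 CPM. Every HG library was below every control library in CPM. With no filter, over 18514 rows, edgeR's quasi-likelihood test gave it a log2 fold change of -1.26 and an adjusted p of 0.0677, above the limit of 0.05. Several of its HG values stand at or under the 3 counts that a 0 allows, so the size of its difference is poorly fixed.

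**Figure D2:**
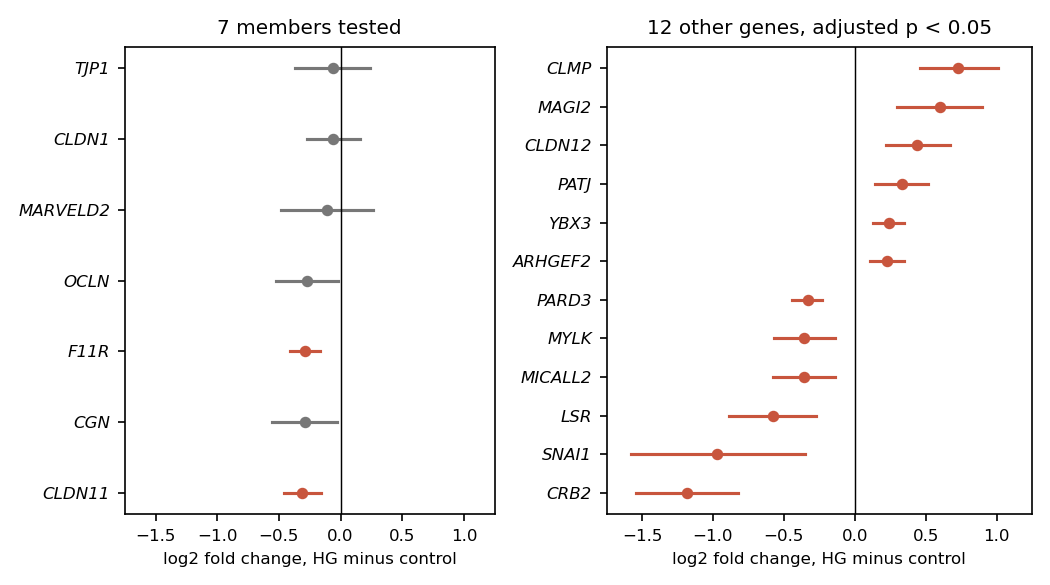
Log2 fold change (HG minus control) with its 95% interval from edgeR for the 7 tested members (left) and for the 12 other genes of the wider junction list with an adjusted p under 0.05 (right), in red where the adjusted p was under 0.05. All 7 member estimates lie below 0, while the 12 others lie on both sides of 0, from -1.18 for CRB2 to 0.73 for CLMP.

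Levels of different genes can be compared only per transcript length, on the deposited FPKM scale (fragments scaled by transcript length and sequencing depth). Over all 10 libraries the mean FPKM was 14.1 for F11R and 10.9 for CLDN11, then 5.28 for CLDN1, 4.25 for TJP1 and 1.74 for OCLN. CGN followed at 0.733, MARVELD2 at 0.547, TJP3 at 0.0451 and CLDN19 at 0.00283. The 2 genes that passed the limit were therefore those with the highest FPKM levels. The log2 fold changes of CGN (-0.29) and OCLN (-0.27) were near theirs, with greater standard errors, and those of CLDN1, TJP1 and MARVELD2 were smaller. In this order the ranges of CLDN1 and TJP1 overlapped in both groups, although CLDN1 was above TJP1 in 9 of the 10 libraries. CGN and MARVELD2, and TJP3 and CLDN19, overlapped within the HG group only, and the other neighbours lay apart in both groups. F11R was at 15.5 ± 1.14 FPKM in control and 12.8 ± 0.696 in HG, and CLDN11 at 12 ± 0.709 and 9.75 ± 0.699 (SD, n = 5 each).

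CLDN11 and CLDN1 were next set within their family. The table holds 23 claudin genes, of which 8 passed the filter and 3 had no count in any library. Of the 8 tested, CLDN12 rose, CLDN11 fell and 6 did not pass. CLDN12, an atypical claudin without the usual tail that binds ZO proteins, was at 56.9, 46.7, 57.2, 55.1 and 55.5 CPM in control and at 55.5, 81.3, 75.1, 79.9 and 77.3 CPM in HG. HG_1 lay within the control range and the other 4 HG libraries above it. The log2 fold change of CLDN12 was 0.44 (SE 0.102, edgeR adjusted p = 0.0141). CLDN15, a claudin of the gut known for cation pores, had the highest FPKM level among the claudins that did not pass, at 23.5 ± 1.33 CPM in control and 21.5 ± 2.03 in HG (log2 fold change -0.13, adjusted p = 0.297).

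The summed FPKM of the claudins was 46.8 ± 0.764 in control and 48.3 ± 3.01 in HG, and CLDN12, CLDN15, CLDN11 and CLDN1 made up 93% and 94% of it. Within this sum CLDN11 held 25.7 ± 1.49% in control (24 to 28%) and 20.2 ± 1.89% in HG (18.1 to 22.4%). CLDN12 held 30.3 ± 2.67% (25.7 to 32.5%) and 40.3 ± 4.67% (32.6 to 44.8%). The groups lay apart for both genes, but for CLDN12 the share in HG_1 stood just above the highest control library. CLDN15 held 25.6 ± 1.8% and 22.7 ± 3%, and CLDN1 11.5 ± 0.82% and 10.7 ± 1.33%, with overlapping groups. The ratio of CLDN11 to CLDN12 in FPKM was 0.739 to 1.09 in control and 0.411 to 0.689 in HG.

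**Figure D3:**
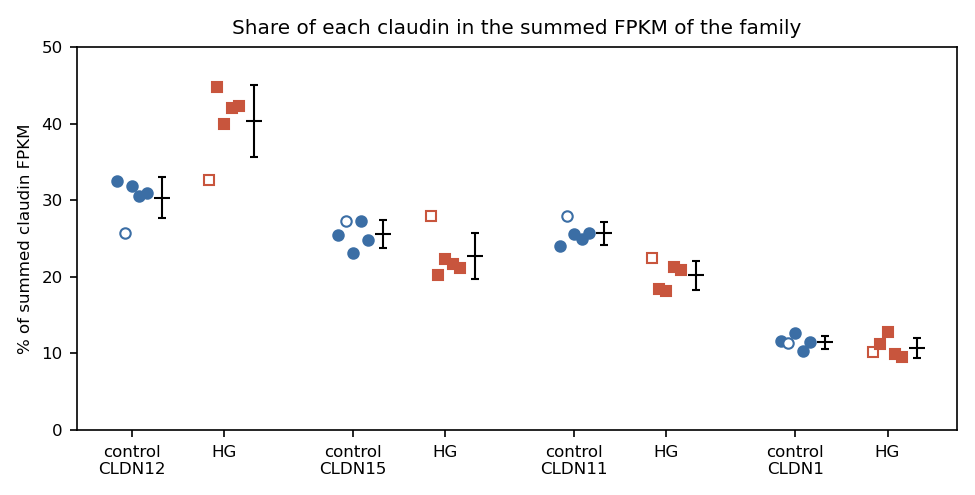
Share of CLDN12, CLDN15, CLDN11 and CLDN1 in the summed claudin FPKM of each library (percent), with circles for control, squares for HG, open symbols for control replicate 2 and HG_1, and bars for the mean ± SD. The mean share of CLDN11 is 25.7% in control and 20.2% in HG, that of CLDN12 is 30.3% and 40.3%, and the points of CLDN15 and CLDN1 overlap.

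A wider list of 94 tight junction genes, which includes the 9, was read by role. Of these 93 have a row (MPP5 is an older symbol of PALS1, which has one), 68 were tested, 6 were higher, 8 lower and 54 did not pass. That is 20.6% called, beside 15.4% of all rows, and the median log2 fold change was -0.06. Among the 61 tested genes that are not members, 6 rose and 6 fell. The whole list, with 6 higher and 8 lower as reported, had 8 and 17 without control replicate 2 and HG_1, where calls over all rows went from 2303 of 14936 to 4035 of 14899. It had 9 and 17 with GC and length trends removed, where 3965 of 13538 rows were called. The list and the whole table thus both gained calls. Those gained by the list were mostly lower in HG, and the totals over all rows are not split by direction.

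Of the 4 tested genes of the MARVEL and tricellular group, LSR fell and 3 did not pass. LSR encodes angulin-1, which recruits tricellulin to the tricellular corners. It was at 19.5, 24.1, 20.2, 19.6 and 19.4 CPM in control and at 18.5, 13.7, 13.4, 10.1 and 12.9 CPM in HG, with the groups apart (log2 fold change -0.58, SE 0.14, edgeR adjusted p = 0.0175). MARVELD2, its partner, did not pass, as given above.

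In the group of 7 JAM-related immunoglobulin proteins, all tested, CLMP rose, F11R fell and 5 did not pass. CLMP, a homophilic adhesion molecule of the CXADR family, was at 19.1 to 29.1 CPM in control and 32.5 to 45.5 CPM in HG (log2 fold change 0.73, SE 0.125, edgeR adjusted p = 0.0029). Those groups did not overlap. CXADR itself, the receptor of coxsackieviruses and adenoviruses, was at 58 ± 6.6 and 47.4 ± 5.73 CPM (-0.29, adjusted p = 0.0795), and JAM3 was at 38.2 and 35.2 CPM (-0.12, adjusted p = 0.423). CXADR passed the limit with DESeq2 (adjusted p = 0.034), without control replicate 2 (0.0346), without both that library and HG_1 (0.0189) and with GC and length trends removed (0.00268).

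Among the ZO and cingulin scaffolds 11 were tested, of which MAGI2 rose and 10 did not pass. MAGI2, a membrane-associated guanylate kinase with several PDZ domains, was at 4.85 ± 0.809 CPM in control and 7.36 ± 0.931 in HG (log2 fold change 0.60, SE 0.135, edgeR adjusted p = 0.0126), and its groups lay apart. The 2 scaffolds with the highest FPKM among those that did not pass were CGNL1, the paralogue of cingulin, and AFDN, which links nectins to actin. CGNL1 was at 196 ± 13.8 and 193 ± 7.8 CPM (-0.02, adjusted p = 0.866), and AFDN at 196 ± 23.4 and 162 ± 24.3 CPM (-0.27, adjusted p = 0.147).

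Of the 15 tested polarity genes, PATJ rose, CRB2 and PARD3 fell and 12 did not pass. CRB2, a Crumbs protein of the apical membrane, was at 12.3, 12.9, 13.3, 10.8 and 13.3 CPM in control and 7.09, 3.85, 6, 4.35 and 6.45 CPM in HG, a log2 fold change of -1.18 (SE 0.163, edgeR adjusted p = 0.000956). PARD3, the PAR-complex scaffold that binds JAM-A, was at 66.9 to 74 CPM in control and 52.2 to 57.9 CPM in HG (-0.33, SE 0.0476, adjusted p = 0.00113). Both genes separated the groups. PATJ, a scaffold of the Crumbs complex, was at 16.6 ± 1.38 and 21 ± 2.12 CPM (0.33, SE 0.0857, adjusted p = 0.0239), and it missed the limit without control replicate 3, HG_4 or HG_5 (adjusted p = 0.0598, 0.0557 and 0.0593). DLG1 (-0.14, adjusted p = 0.438) and SCRIB (-0.19, adjusted p = 0.203), basolateral polarity scaffolds, did not pass.

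Of 17 tested genes for signalling and traffic at the junction, YBX3 and ARHGEF2 rose, MICALL2 and MYLK fell and 13 did not pass. YBX3, also called ZONAB, is a Y-box factor that the SH3 domain of ZO-1 holds at the junction, and ARHGEF2, or GEF-H1, is a RhoA activator that cingulin binds. YBX3 was at 157 ± 5.9 CPM in control and 186 ± 11.3 in HG (log2 fold change 0.24, SE 0.0498, edgeR adjusted p = 0.00783). ARHGEF2 was at 78.9 ± 3.53 and 92.4 ± 5.85 CPM (0.23, SE 0.0542, adjusted p = 0.0168). Both had groups that lay apart. MICALL2, a RAB13 effector in occludin recycling, was at 19.2 ± 1.66 and 15 ± 2.02 CPM (-0.36, adjusted p = 0.0327). MYLK, the myosin light chain kinase, was at 315 ± 36.1 and 246 ± 28.4 CPM (-0.36, adjusted p = 0.0315). Those 2 calls are less firm than those of YBX3 and ARHGEF2 when 1 library is left out. MICALL2 lost its call without control replicate 1, 2 or 5 or HG_2, HG_4 or HG_5, and MYLK without control replicate 1, 3, 4 or 5 or HG_2, HG_3 or HG_4, with adjusted p up to 0.0802 and 0.0798. RHOA (-0.06, adjusted p = 0.265) and RAB13 (0.07, adjusted p = 0.623) did not pass.

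Of 11 transcription factors known for control of epithelial junction genes, 6 were tested, SNAI1 fell and 5 did not pass. SNAI1, a repressor of claudins and occludin, was at 2.06, 1.82, 1.35, 1.85 and 1.59 CPM in control and at 1.4, 0.461, 0.713, 0.79 and 1.06 CPM in HG. Only HG_1 reached into the control range. The log2 fold change was -0.97 (SE 0.28, edgeR adjusted p = 0.0402), and leaving out any library other than HG_1 lifted the adjusted p above the limit (0.0505 to 0.1). TWIST1, at 13.7 CPM in both groups, and ZEB2, at 60 and 61.9 CPM, did not pass (adjusted p = 0.996 and 0.86).

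Control replicate 2 and HG_1 differed from the other libraries in how counts followed GC content. The slope of a library's log2 level over the average was 0.17 and 0.188 per 10 percentage points of GC content in these 2 libraries, and between -0.0916 and -0.00519 in the other 8. Without both libraries the log2 fold change was -0.31 for F11R (adjusted p = 0.0028) and -0.29 for CLDN11 (0.00991). After the GC and length trends of every library were taken out, it was -0.27 for F11R (0.000794) and -0.35 for CLDN11 (0.000702). The 2 calls among the members were thus made with and without the unusual libraries. CGN (adjusted p = 0.104 and 0.163) and OCLN (0.162 and 0.0961) stayed short of the limit in both settings. CLDN12 rose in both, by 0.48 without the 2 libraries and by 0.42 after the correction.

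**Figure D4:**
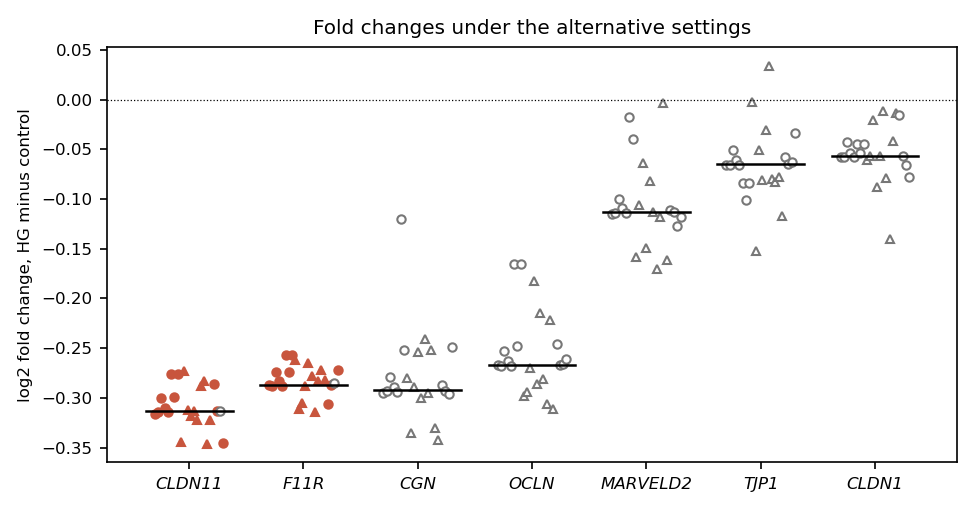
Log2 fold change (HG minus control) of the 7 tested members under the alternative settings, with circles for other methods, triangles for fits that leave out 1 library, filled red symbols for an adjusted p under 0.05 and a black line for the value reported. F11R (-0.31 to -0.26) and CLDN11 (-0.35 to -0.27) are red in all settings but one, the replicate block on the number of the deposited column, the other 5 genes never are, and TJP1 crosses 0 once, at 0.03.

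By the rule on likeness of pattern, 12304 genes with a mean of at least 1 CPM were ranked by Pearson's r with CLDN11 over the 10 libraries. The 5 highest were SNRPA1 (r = 0.973), MCM5 (0.963), SFXN2 (0.963), E2F1 (0.96) and MCM2 (0.959). Since all points share the 2 groups, r after removing the group means is given as well, and it was 0.924, 0.868, 0.855, 0.856 and 0.834. Their log2 fold changes ran from -0.63 for E2F1 to -0.26 for MCM2. These genes were chosen as the highest of 12304 on these same libraries, a choice that favours a high r and the direction of CLDN11. How much of the within-group r and of the direction comes from this choice was not tested. SNRPA1 is a spliceosome protein, SFXN2 a mitochondrial carrier, MCM2 and MCM5 are helicase subunits of DNA replication and E2F1 is a factor of the cell cycle.

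The line carried part of the RPE programme. OTX2 (96.2 and 88.8 CPM in control and HG) and MITF (57.8 and 50.2 CPM), transcription factors of the tissue, were present, while RPE65, the isomerase of the visual cycle, was at or near 0 and TTR at 0. At an adjusted p under 0.05 in edgeR, 7.8% of all rows tested were lower in HG and 7.62% higher. Of 15 RPE markers 11 were tested and 3 were lower in HG, the keratins KRT8 and KRT18 and the melanosome gene PMEL, and the other 8 did not pass. The summed level was 2840 to 3590 CPM in control and 1800 to 2470 CPM in HG, most of it from KRT8 (1860 and 1210 CPM) and KRT18 (1060 and 659 CPM), keratins of simple epithelia in general. BEST1, a chloride channel of the tissue, ranged from 0.577 to 551 CPM among the control libraries alone (edgeR adjusted p = 0.067). The summed leukocyte list was 54.5 to 81.3 and 102 to 144 CPM, nearly all of it the lysosomal gene CD68 (log2 fold change 0.70, adjusted p = 0.00311), with PTPRC near 0 and AIF1 at 0. Of 8 fibroblast or mesenchymal markers 6 were tested and 5 were lower (COL1A1, PDGFRB, ACTA2, CDH2 and S100A4), and THY1 was at 0. The summed level of this list was 6230 to 6670 and 6330 to 7260 CPM, most of it from VIM (5650 and 6110 CPM, log2 fold change 0.11, adjusted p = 0.168). Of 6 endothelial markers 2 were tested and KDR was lower (log2 fold change -0.63, adjusted p = 0.0452). This list summed to 3.22 to 5.42 and 2.44 to 3.22 CPM, most of it from KDR, with CDH5 at 0. The part of these lists in the changes of the junction genes was not tested. TXNIP, a gene known to follow glucose, was at 0.809 to 1.23 CPM in control and 5.38 to 12.9 CPM in HG, as the labels have the groups.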

How the data were processed

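Libraries of ARPE-19 RNA came from 5 control samples and 5 HG samples, taken at 48 h. One deposited table holds raw read counts per gene, which are not normalized. The other holds FPKM values of these libraries, made by the authors with scaling for transcript length and depth. The submitters' processing notes name GRCh38, HISAT2 2.2.1 and fastp 0.20.1, and the counting program and annotation are not given in the sources used here, nor whether strand was used.

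Counts were compared in R 4.3.3 with edgeR 4.0.16 (default filter on low counts, TMM normalization, quasi-likelihood test), and p-values were adjusted by Benjamini and Hochberg over 14936 rows. CPM used TMM-scaled library sizes. The 7 tested members also had an exact two-sided permutation test over all arrangements of the libraries, and its p-values were not adjusted. Total counts were 32448991 to 45864176 per library, so that the 3 counts a 0 allows equal 0.0669 to 0.0912 CPM, for counting error only. The 20 pairs of libraries within groups differed by more than sampling noise, with a chi-square per row of 13 to 78. The main edgeR fit, the DESeq2 fit, a limma fit and the removal of a GC trend were tested on simulated counts, and the other steps were not. The members and gene lists were chosen with earlier results of these data known. Named are all 9 members and, per role group of the wider list, genes with an adjusted p under 0.05 (at most 8) and the 2 of highest mean FPKM that did not pass.

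The alternatives tried were scaling by library size alone, RLE size factors, DESeq2 1.42.0, other filters, limma 3.58.1 on log2(FPKM + 1) or log2(FPKM + 0.1), each library left out, control replicate 2 and HG_1 both left out, and counts without assembled loci named MSTRG. Chosen after seeing the data were the removal of trends on GC content and transcript length (lowess, span 0.3, 13538 rows) and the deposited column number as a replicate block. The GENCODE release 29 sequences were searched for 100-base windows shared with other genes, and promoters came from RefSeq. F11R and CLDN19 were not found in the promoter table.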

Additional observations from a re-analysis of the deposited data

Results flagged for a closer look

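In 13 of 68 groups of 5 values, 1 library stood apart from the other 4 by Dixon's criterion, where chance alone gives about 3.4. The count includes both groups of CLDN19, where 1 library held 3 counts and the others 0, so that the criterion is met by the zeros and says nothing about a library apart. Among the members, TJP1 in HG was 22.4 CPM in HG_1 (the others 31.9 to 35.2), OCLN in control was 15.4 CPM in replicate 4 (11.5 to 12.5) and F11R in HG was 68.4 CPM in HG_2 (61 to 63.1). CLDN19 was at 0.0674 CPM in control replicate 5 and 0.0912 CPM in HG_4, and at 0 elsewhere. In control replicate 2, the library with a GC trend, CLDN12 was 46.7 CPM (55.1 to 57.2 in the other control libraries), DLG1 was 175 CPM (222 to 233) and ZEB2 was 45.1 CPM (63.2 to 65). LSR, at 24.1 CPM (19.4 to 20.2), and YBX3, at 167 CPM (153 to 157), were higher there. In HG_1, the other such library, CLDN12 was 55.5 CPM (75.1 to 81.3) and ZEB2 was 47.2 CPM (62.7 to 67.8). RHOA was 651 CPM in HG_4 (640 to 642).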

How the results depend on the processing

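Apart from the replicate block described last, every alternative called 0 members higher and 2 lower in HG. F11R and CLDN11 kept their direction in all 22 alternatives and their call in 21, and TJP1 alone among the members changed sign, to 0.034 without HG_1. Of the wider list, 8 genes were lower, 17 with control replicate 2 and HG_1 both left out, 17 with the GC and length trends removed, and 5 to 11 with 1 library left out (5 without control replicate 1 or 5, HG_2 or HG_4), where calls over all rows ran from 1648 to 2993. Over all rows 2303 calls became 4035 with both libraries left out and 3965 with the trends removed, on 14899 and 13538 rows. The cause of these shifts was not tested. With the trends removed, CGNL1 was 0.025 and RAB13 -0.002. ZEB2 was -0.05, -0.054 and -0.05 in the 3 limma fits on FPKM, where TWIST1 was 0.037, 0.04 and 0.037, and TWIST1 was 0.01 with library size alone and 0.002 with no filter. With 1 library left out, the log2 fold change was -0.15 to 0.034 for TJP1, -0.049 to 0.011 for CGNL1, -0.007 to 0.11 for RAB13, -0.041 to 0.13 for ZEB2 and -0.033 to 0.038 for TWIST1. None of these passed the limit. MYLK missed it with library size alone (adjusted p = 0.0572) and in limma (0.297 to 0.353), and SNAI1 with no filter (0.0542). With both libraries left out and with the trends removed, AFDN (adjusted p = 0.0125 and 0.0122), DLG1 (0.0421 and 0.00506) and CXADR passed, as did RHOA with the trends removed (-0.104, 0.015) and SCRIB without control replicate 3 (0.0449).

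The labels number the control libraries and letter the HG libraries, but the deposited columns number both, and nothing ties equal numbers to a shared culture or day. Deviations of same-numbered libraries correlated at -0.07 to 0.04, and 0 of 5 control libraries matched best with the HG library of their number. Control replicate 2 matched best with HG_1, the other library with a GC trend. With so few libraries and that trend in the deviations, this check cannot decide whether libraries were paired. A fit with the column number as a replicate block, chosen after seeing the data, called 1071 of all rows, 0 members, and 2 genes higher and 3 lower in the wider list as a whole. In that fit the log2 fold change was -0.285 for F11R (adjusted p = 0.0565) and -0.313 for CLDN11 (0.0747). CLMP, MAGI2, LSR, CRB2 and PARD3 kept their calls. CLDN12 (adjusted p = 0.0784), PATJ (0.0618), YBX3 (0.0573) and ARHGEF2 (0.0747) lost theirs, as did MICALL2, MYLK and SNAI1. TJP3 and CLDN19 have too few counts for a firm fold.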
